A study of Drosophila melanogaster with 4 samples.

Results

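The regions described here are those that the authors listed as enriched for HP1c on 5 heterochromatin scaffolds of the Drosophila melanogaster genome (2LHet, 3LHet, 3RHet, XHet and YHet) and on U, the collection of sequence not placed on a chromosome. They were chosen by the sequence name alone, with rows named as depletion left out. The authors' combined list, which covers the replicate set, held 147 such regions among 6891. The list of ChIP replicate 1 held 92 among 5586 and that of ChIP replicate 2 held 86 among 5946. Wild-type larvae of the strain Oregon-R (Oregon-R-modENCODE), taken at the third instar, served for ChIP-seq of HP1c, in which DNA bound by a protein is recovered with an antibody and sequenced. It comprises 2 HP1c ChIP libraries, made with an affinity-purified rabbit polyclonal antibody, and 2 input DNA libraries from the same strain and stage. Only the ChIP lists were analysed here, and read depth is unknown. The labels do not tie the replicates to separate collections of larvae, so the spread between them may be technical.

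HP1 proteins carry a chromodomain, which in HP1a binds methylated histone tails and makes that protein the main component of pericentric heterochromatin. HP1c is a related protein known mainly from euchromatin, where it works with the zinc finger proteins WOC and ROW at transcribed genes. Pericentric heterochromatin is rich in transposons and satellite repeats but holds genes as well, and the Y chromosome is heterochromatic along its whole length and is carried by males only. The scaffolds are assembled parts of this sequence that were assigned to a chromosome or arm. They are not all of it: the combined list also has regions on a further scaffold, 2RHet, which is not described here. The pieces of U are joined in no biological order, so a position on U places a region within one piece but says nothing of its distance from regions on other pieces. Positions are those of FlyBase release 5, which the file headers name. Gene annotation and genome sequence of that release were not used here, so regions are named by position and no sequence is shown.

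All 6 sequences carried fewer HP1c regions per Mb than any of the arms 2L, 3L, 3R and X. In the mean of the replicate lists XHet held 29.4 ± 0 regions per Mb (SD, n = 2), 3LHet 12.1 ± 2.2, 2LHet 9.49 ± 1.9, YHet 7.20 ± 2.0, 3RHet 3.97 ± 0.56 and U 3.58 ± 0.14. The arms ranged from 42.0 on 2L to 55.4 on X. XHet, the shortest scaffold at 0.204 Mb, stood well above the other scaffolds in both replicates, and 3RHet and U lay at the low end. Over the sequences, the scaffolds and U averaged 11.0 ± 9.6 regions per Mb (SD, n = 6) and the arms 46.7 ± 6.0 (n = 4), a difference of -35.8 (exact permutation test over the 210 splits of the 10 sequences, two-sided p = 0.00476, the smallest these sequences allow; adjusted p = 0.0238 over 5 measures). With 5 sequences left, without U or without YHet, the adjusted p was 0.0794 and the differences were -34.3 and -35.0 regions per Mb. The sequences are a fixed set and not samples, so the p-value only places this difference of means among those of all splits.

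The part of each sequence inside regions followed nearly the same order. Of XHet, 6.95% lay inside regions in replicate 1 and 6.63% in replicate 2. The values were 4.24% and 4.07% on 3LHet, and 3.23% and 4.45% on 2LHet, whose ranges overlap. On 3RHet 1.60% and 1.70% were covered, on YHet 1.12% and 1.57%, and on U 0.879% and 1.04%. The replicate values of 3LHet and 2LHet therefore did not stand apart, while every other pair of neighbours in this order did, 3RHet and YHet by a narrow margin. In base pairs, 3LHet alone held 108 kb of the 179 kb covered on the 5 scaffolds in replicate 1 and 104 kb of 182 kb in replicate 2.

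**Figure D1:**
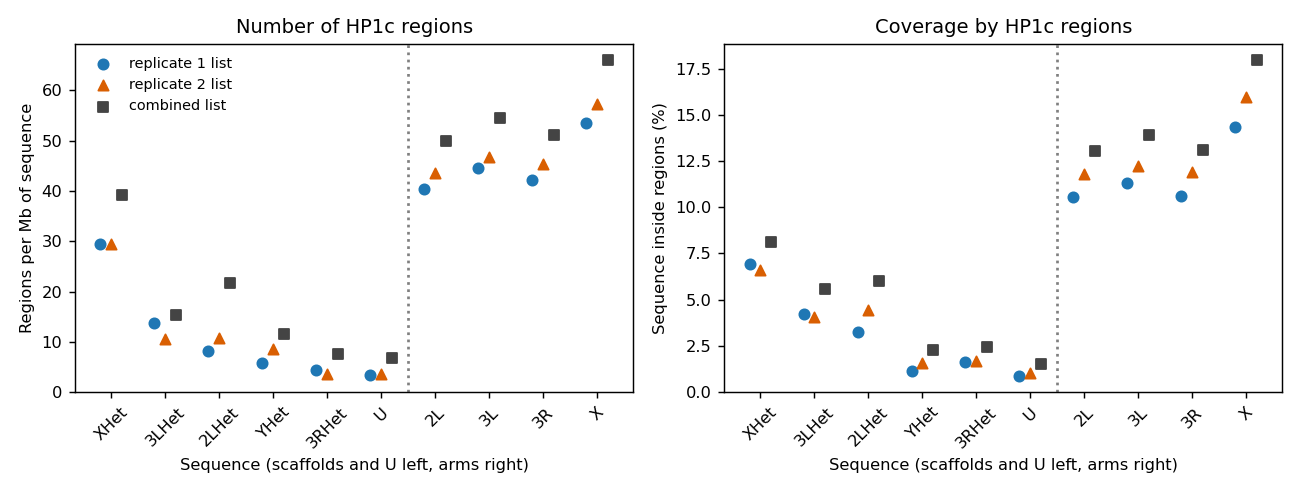
The left plot gives the number of HP1c regions per Mb and the right plot the percent of each sequence inside regions, on the 5 heterochromatin scaffolds and U and, right of the dotted line, on 4 arms. Each symbol is 1 of the 3 lists. In the replicate lists XHet reaches 29.4 regions per Mb, the highest of the 6 sequences, and all arms lie above 40 in every list.

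Regions were not spread evenly along the scaffolds. On YHet all regions of all 3 lists fell within 25.6 kb, between 303886 and 329520, and the first 304 kb, or 87.6% of the scaffold, held none. On 3RHet the first 1142 kb (45.4% of its length) held none, and a further stretch of 561 kb, from 1143851 to 1704865, separated its first region from the rest. XHet regions were confined to 61.5 kb, 30.1% of that scaffold, in the 3 lists. Of the 5 scaffolds, 3LHet was filled most broadly, from 201712 to 2410994, with its longest stretch free of regions, 271 kb, from 1725243 to 1996084. On 2LHet the longest such stretch ran over 124 kb from 40141 to 163929, and on U over 1235 kb from 2097771 to 3332911. Since the pieces of U are joined in no biological order, the stretch on U may run across several pieces. Gaps in the assembled sequence and repeats to which reads cannot be aligned uniquely were not mapped here, and their part in these stretches was not tested.

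**Figure D2:**
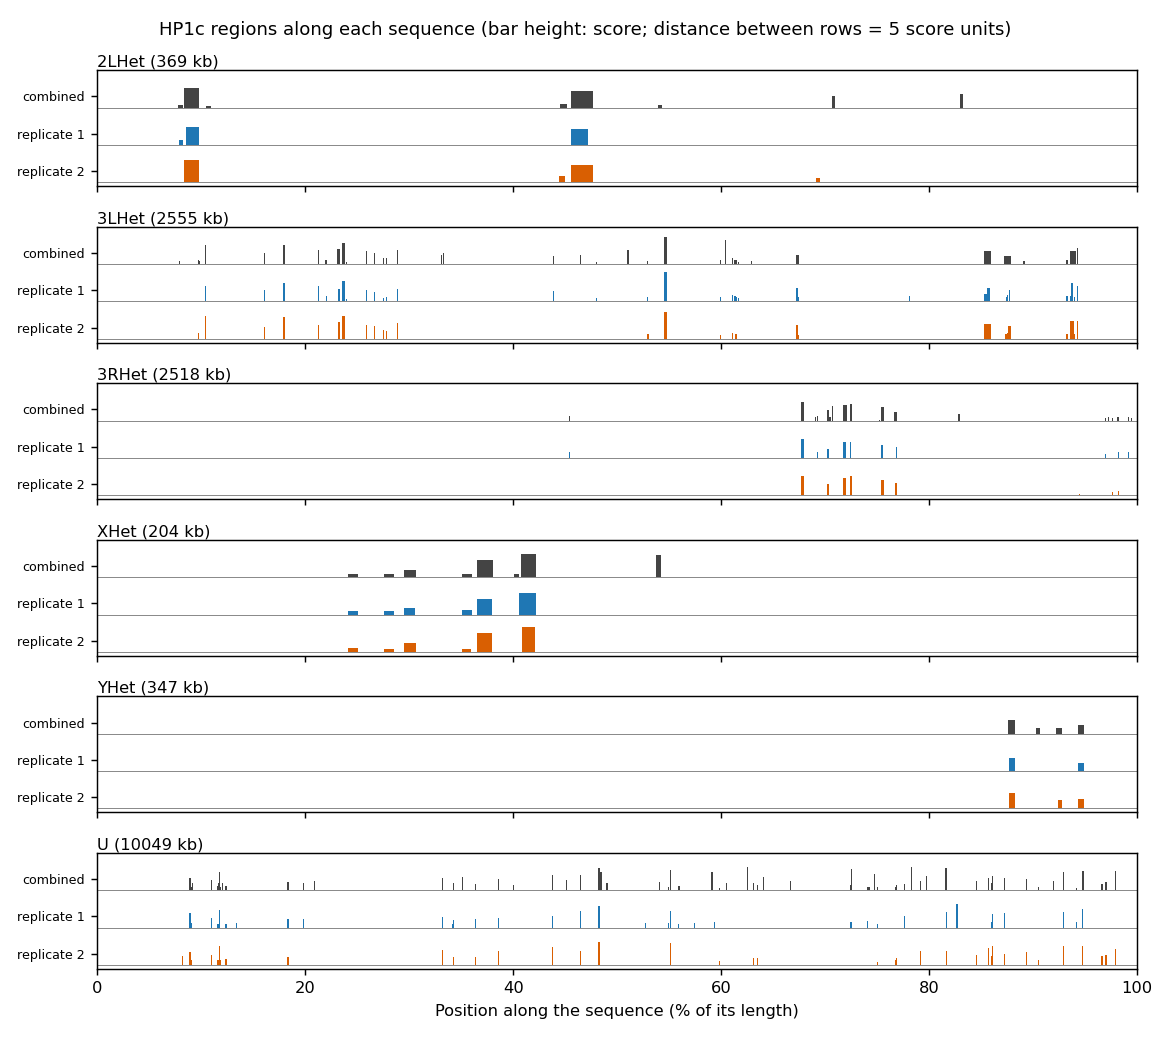
Each panel is 1 sequence, drawn from 0% to 100% of its length, with a row for each list. A bar is a region, drawn to width, with a minimum so that short regions on long sequences stay visible, and its height is the authors' score within that list. YHet and 3RHet regions lie towards one end of their scaffold, and those of XHet leave 24.1% of it free before them and 45.8% after them.

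By overlap and shared bases, XHet gave the most repeatable picture. Each replicate listed 6 regions there, all 6 overlapping a region of the other (100%, exact 95% binomial interval 54.1 to 100), against 90.4% of the whole list of replicate 1 and 83.7% of that of replicate 2. The lists shared 13.2 kb on XHet, a Jaccard index over bases of 0.91, compared with 0.75 on the 4 arms. Its strongest replicated region, 83126 to 86066 (2941 bp), scored 3.15 in the combined list, 2.92 in replicate 1 and 3.36 in replicate 2, where it ranked 207 of 6891, 225 of 5586 and 223 of 5946. The next was 74472 to 77594 (3123 bp), which is also the widest there, with scores of 2.32, 2.12 and 2.49 in the same lists. The other 4 replicated regions were weaker, with combined scores from 0.44 to 1.02. Along the scaffold, the longest run of regions less than 5000 bp apart held 4 combined regions over 14.6 kb, from 71512 to 86066. The combined list added 2 regions on XHet that no replicate listed, one of them, 109700 to 110700, with a score of 2.98 at a width of 1001 bp.

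3LHet carried the most regions of the 5 scaffolds, 39 in the combined list, 35 in replicate 1 and 27 in replicate 2. Replicate 2 overlapped 29 of the 35 (82.9%, 95% interval 66.4 to 93.4), and replicate 1 overlapped 26 of the 27 (96.3%, 81.0 to 99.9). The strongest region of all 6 sequences lay here, at 1393676 to 1399310 (5635 bp). It scored 3.65 in the combined list (rank 37 of 6891), 4.01 in replicate 1 (rank 7 of 5586) and 3.62 in replicate 2 (rank 114 of 5946), and the nearest other combined region lay 39423 bp away. The next replicated one, 600316 to 608864 (8549 bp), scored 2.83, 2.76 and 3.12 in these lists. The second of these belongs to a dense stretch: between 20% and 30% of the scaffold's length lay 11 of the 39 combined regions, 10 of the 35 of replicate 1 and 8 of the 27 of replicate 2.

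Very wide regions stood towards the other end of 3LHet. The 3 widest combined regions of all 6 sequences were 2179916 to 2195698 (15783 bp, score 1.78), 2229966 to 2245374 (15409 bp, score 1.12) and 2391070 to 2405696 (14627 bp, score 1.81), and both replicates overlapped each. The replicates divided them differently. Replicate 2 listed the first as 1 region of 15774 bp, whereas replicate 1 listed 2 regions of 6557 and 8243 bp in its place. The combined region from 2229966 took in 3 regions of each replicate, and the one from 2391070 took in 3 of replicate 1 and 2 of replicate 2. Over the whole of 3LHet the covered lengths, 108 kb in replicate 1 and 104 kb in replicate 2, were close.

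On 3RHet the replicated regions were few, wide and grouped in 1 part of the scaffold. Of 19 combined regions, 7 overlapped both replicates, 4 replicate 1 alone, 1 replicate 2 alone and 7 neither. Of the 7, 6 lay between 1704872 and 1936548, with combined scores from 1.20 to 2.53 and widths from 4917 to 8931 bp. The strongest was 1704872 to 1711844 (6973 bp), with scores of 2.53 in the combined list, 2.51 in replicate 1 and 2.57 in replicate 2. The widest, 1805520 to 1814450 (8931 bp), scored 2.10, 2.15 and 2.29. The regions outside this stretch scored lower. The region 2086204 to 2087290 (1087 bp), which overlapped neither replicate, scored 0.87. The 6 combined regions between 2441378 and 2505246 scored 0.30 to 0.52, and only 1 of them, 2470638 to 2475190, overlapped both replicates. The most isolated region, 1141872 to 1143850, was listed by replicate 1 with a score of 0.85 and not by replicate 2.

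2LHet had 2 replicated regions, both strong and wide. The first, 30854 to 35998 (5145 bp), scored 2.66 in the combined list, 2.33 in replicate 1 and 2.93 in replicate 2. The second, 167970 to 175738 (7769 bp), scored 2.18, 2.12 and 2.35. Beside them replicate 1 listed 1 further region, with a score of 0.62, and replicate 2 listed 2, with scores of 0.59 and 0.85. The combined list held 8 regions on 2LHet, of which 4 overlapped neither replicate. Its longest run of regions less than 5000 bp apart, 3 regions from 28694 to 40140, surrounds the first replicated region.

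YHet had 4 combined regions, 2 in replicate 1 and 3 in replicate 2. The strongest, 303886 to 306424 (2539 bp), scored 1.90 in the combined list, 1.75 in replicate 1 (304291 to 306309) and 2.13 in replicate 2 (304272 to 306419). The region 327402 to 329520 (2119 bp) scored 1.13 in the combined list, 1.12 in replicate 1 (327514 to 329380) and 1.25 in replicate 2 (327509 to 329485). Both were thus found in both replicates at nearly the same positions. The region 320190 to 322068 (score 0.74) was met by replicate 2 alone, at 320560 to 321885 with a score of 1.20, and 313440 to 314806 (score 0.78) by neither. No YHet region reached the upper 10% of its list by score. The labels do not give the sex of the animals, and the share of Y-bearing larvae behind these values was not tested.

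U held the most regions of the 6 sequences in the combined list and in replicate 2, and as many as 3LHet, 35, in replicate 1. Many regions on U were listed by 1 replicate alone. The combined list had 69 regions on it, of which 22 overlapped both replicates, 7 replicate 1 alone, 14 replicate 2 alone and 26 neither. Replicate 2 overlapped 23 of the 35 regions of replicate 1 (65.7%, 95% interval 47.8 to 80.9), and replicate 1 overlapped 22 of the 37 of replicate 2 (59.5%, 42.1 to 75.2). Both shares lie below those of the whole lists, 90.4% and 83.7%, and U had the lowest Jaccard index over bases of the 6 sequences, 0.53. The strongest replicated region on U was 4848434 to 4850744 (2311 bp), with scores of 3.01 in the combined list, 2.96 in replicate 1 and 3.05 in replicate 2. The widest was 3435494 to 3449642 (14149 bp), with a combined score of 1.02, which took in 2 regions of replicate 1 and 1 of replicate 2. Its longest runs of regions less than 5000 bp apart held no more than 2 regions in any list.

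Set beside the arms, the regions on the scaffolds and U varied more from sequence to sequence in score and width, and the tests separated the groups in neither measure. Over the sequences, the median percentile of a region's score within its list averaged 57.6 ± 11.1 on the scaffolds and U (SD, n = 6) and 50.2 ± 1.5 on the arms (n = 4), a difference of 7.38 (exact permutation test, p = 0.248, adjusted p = 0.310). The scaffolds differed among themselves: the replicate mean was 71.7 ± 16.6 on 2LHet (SD, n = 2) and 38.3 ± 2.4 on XHet. 2LHet had only 3 regions in replicate 1 and 4 in replicate 2. In the combined list the medians were closer, 53.6 on 2LHet and 47.0 on XHet. Median widths averaged 2765 ± 956 bp on the scaffolds and U and 2287 ± 17.3 bp on the arms (exact permutation test, p = 0.390, adjusted p = 0.390). 2LHet, with 4034 ± 553 bp (SD, n = 2), 3RHet, with 3890 ± 997 bp, and 3LHet, with 2596 ± 185 bp, lay above all arms. XHet, YHet and U, at 1960 to 2112 bp, lay below them. In the combined list the difference had the opposite sign, with 1962 ± 233 bp on the scaffolds and U and 2258 ± 31.1 bp on the arms (exact permutation test, p = 0.0286, adjusted p = 0.0556).

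Wide regions made up a larger share of the scaffold regions than of the whole lists. Regions wider than 5000 bp were 8 of 57 on the 5 scaffolds in replicate 1 and 11 of 49 in replicate 2, where the whole lists had 4.56% and 5.68%. All of these lay on 2LHet, 3LHet and 3RHet, and XHet and YHet had none. U added 3 in each replicate, of 35 and 37 regions. In the combined list 19 of the 147 regions (12.9%) passed 5000 bp, compared with 5.94% of the whole list, and 5 of them passed 10000 bp, 3 on 3LHet and 2 on U, whereas 15 of 5399 did so on the arms and 0.392% in the whole list. The limit of 10000 bp was chosen after the widths had been seen, and these shares were not tested.

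In the replicate lists closely spaced regions were common on XHet and 3LHet, and rare or absent on U, 3RHet and YHet. The share of regions with a neighbour less than 5000 bp away was 66.7% ± 0 on XHet (SD, n = 2), 58.3% ± 11.8 on 2LHet and 54.5% ± 3.7 on 3LHet, but 8.42% ± 4.3 on U and 0% on 3RHet and YHet in both replicates. On 2LHet it rested on a single pair in each replicate, 2 of 3 regions in replicate 1 and 2 of 4 in replicate 2. The pairs differed, from 28807 to 35907 in replicate 1 and from 163930 to 175732 in replicate 2. Each pair included a region that the other replicate did not list. The whole lists had 62.4% in replicate 1 and 64.9% in replicate 2. In the combined list, where the whole list had 68.5%, the share was 36.8% on 3RHet (7 of 19 regions, with a run of 3 from 1767342 to 1780388) and 23.2% on U (16 of 69), and it stayed at 0% on YHet. The scaffolds and U averaged 31.3% ± 31.6 (SD, n = 6) and the arms 64.3% ± 5.7 (n = 4), a difference of -33.0 percentage points (exact permutation test, p = 0.0667, adjusted p = 0.167). Among the regions in the upper 50% by score the difference was -41.8 points, with 3.70% on the scaffolds and U and 45.5% on the arms (exact permutation test, adjusted p = 0.0119). This cut left few regions on 2LHet, XHet and YHet, and it also takes weaker neighbours away. On XHet the strongest region and the next stood 5346 bp apart in replicate 1 and 5717 bp in replicate 2, just past the limit. At this limit most stronger regions of the scaffolds had no close neighbour of that strength, while the close neighbours on XHet, 3LHet and 2LHet included weaker regions. This share and the number of regions per Mb were both low on 3RHet, YHet and U, and they were not separated here. On U, distances between neighbours were measured along the joined pieces, whose order is not biological.

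Support by the other replicate averaged 77.4% ± 16.3 on the scaffolds and U (SD, n = 6) and 87.4% ± 0.96 on the arms (n = 4), a difference of -9.97 percentage points (exact permutation test, p = 0.243, adjusted p = 0.310). It ranged from 58.3% on 2LHet and 62.6% on U to 100% on XHet. With each replicate list first cut to its upper 50% by score, a region counted as supported only if its partner also lay there. By this stricter measure the difference was -0.026 points, with 88.2% ± 12.1 on the scaffolds and U (SD, n = 6) and 88.3% ± 0.59 on the arms (n = 4). The scaffolds and U still spread widely, and the cut left few regions on 2LHet, XHet and YHet. The near-equal means therefore do not show that each sequence matched the arms. Unsupported regions on the 5 scaffolds were weaker than supported ones. Their median scores were 0.70 in replicate 1 (n = 11) and 0.67 in replicate 2 (n = 6), against 1.47 and 1.76. On the arms the unsupported medians were lower, 0.46 in replicate 1 (n = 401) and 0.40 in replicate 2 (n = 759), against 1.07 and 1.38. On U the unsupported regions were also weaker, with medians of 0.77 in replicate 1 (n = 12) and 1.16 in replicate 2 (n = 15), against 1.37 and 1.77. The value of 1.16 lies near the middle of the replicate 2 list. One unsupported region of replicate 1 on U, 8309602 to 8310945 (1344 bp), scored 3.15 and ranked 122 of 5586, yet it overlapped no region of replicate 2 or of the combined list. It was singled out after its value had been seen.

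Where the replicates listed the same region, they placed and ranked it alike. On the 6 sequences 59 regions of replicate 1 met exactly 1 region of replicate 2 and the reverse, 21 of them on 3LHet, 21 on U, 7 on 3RHet, 6 on XHet and 2 each on 2LHet and YHet. Their centres lay a median of 145 bp apart, compared with 43.0 bp for the 3782 such pairs on the arms. The median was 44.0 bp on XHet and 80.0 bp on U, but 185 bp on 3LHet and 229 bp on 3RHet. Scores of the 59 pairs ran together with a Spearman rho of 0.93 and a Pearson r of 0.93, and the arms gave 0.90 and 0.93. By sequence, rho was 0.96 on 3RHet, 0.90 on U and 0.89 on 3LHet. It was lowest on XHet, 0.77, where the 6 pairs had a Pearson r of 0.99. The pairs come from the same 2 libraries, so these values describe the lists only.

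**Figure D3:**
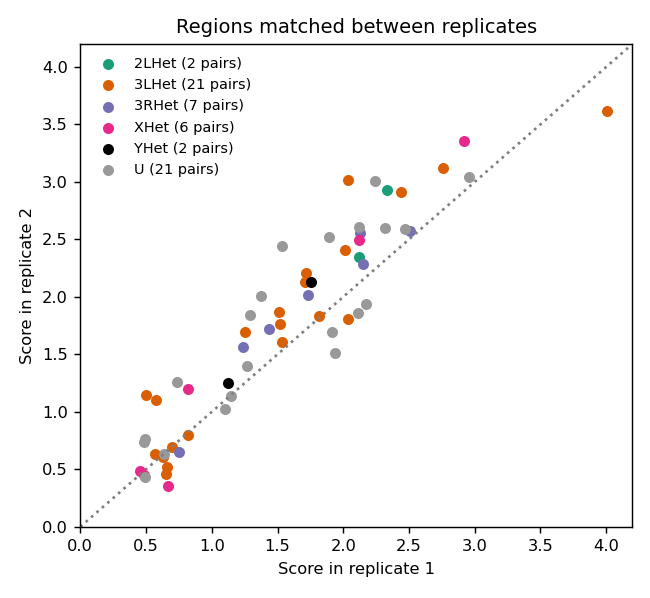
Each point is 1 of the 59 regions that the replicates shared one to one on the scaffolds and U, with its score in replicate 1 on the horizontal axis and in replicate 2 on the vertical axis. The dotted line marks equal scores. The points of all 6 sequences lie along it, up to the 3LHet region with scores of 4.01 and 3.62.

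On these sequences the combined list held many regions that the replicate lists did not. Of its 147 regions there, 61 (41.5%, 95% interval 33.4 to 49.9) overlapped both replicates, 17 replicate 1 alone, 18 replicate 2 alone and 51 (34.7%, 27.0 to 43.0) neither. In the whole list 71.1% overlapped both and 9.32% neither. Neither replicate met 26 of the 69 regions on U, 11 of 39 on 3LHet, 7 of 19 on 3RHet, 4 of 8 on 2LHet, 2 of 8 on XHet and 1 of 4 on YHet. Over the sequences the share overlapping both averaged 45.9% ± 18.4 on the scaffolds and U (SD, n = 6) and 72.1% ± 1.5 on the arms (n = 4), a difference that did not pass the threshold (exact permutation test, p = 0.0333, adjusted p = 0.0556).

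**Figure D4:**
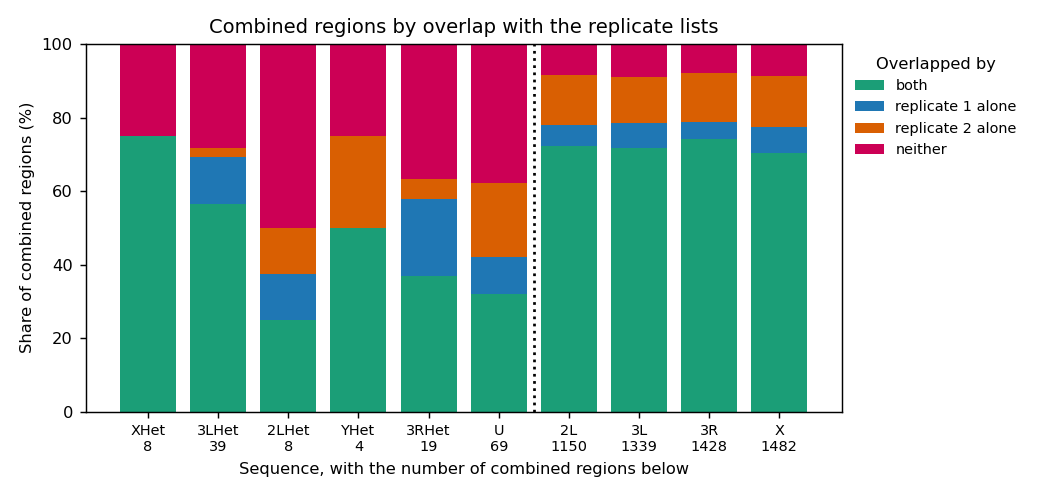
Bars give the percent of combined regions on each sequence that overlap both replicate lists, one of them or neither, with the number of combined regions under each name. Scaffolds and U stand left of the dotted line and the arms right of it. The share in neither is 25.0% to 50.0% on the scaffolds and U and 8.52% over the 4 arms together.

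Many of these unmatched combined regions scored high although they were narrow, above all on U. Combined regions found in neither replicate had a median score of 1.04 on the scaffolds and U, and 31 of 51 lay above the middle of the list by score. The median was 1.24 on U, where 21 of 26 lay above the middle, and 0.52 on the 5 scaffolds, where 10 of 25 did. On the arms their median score was 0.31, and 20 of 460 lay above the middle. Regions at most 1100 bp wide, close to the smallest width of the combined list (1001 bp), made up 28 of the 147 regions (19.0%), compared with 3.13% of the whole list. Of the 28, 26 overlapped neither replicate, as did 109 of the 143 such regions on the arms. The median score was 1.24 for the 28 and 0.40 for the 143. In the upper 10% of the list by score lay 5 of the 28 and 3 of the 143. Among the last regions along 2L, those of 1001 and 1009 bp, in neither replicate, scored 2.98 and 3.35. The replicate lists held no region narrower than 1301 bp, so none of this width stands in them. The width limit was chosen after the values had been seen, and the pattern was not tested.

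These narrow regions reached the top of the list for these sequences. Of its 10 highest-scoring regions on the scaffolds and U, 4 overlapped both replicates and 6 overlapped neither, and 5 of the 10 were 1001 to 1003 bp wide. The 3 regions 3LHet 1542932 to 1543932, U 6286738 to 6287738 and U 7870920 to 7871922 all had the score 3.17714, and XHet 109700 to 110700 and U 8202724 to 8203724 both had 2.98450. A wider one, U 7291742 to 7295078 (3337 bp), scored 2.83 and also overlapped neither replicate. The other 4 were the replicated regions of 3LHet, XHet and U named above. Exactly equal scores occurred in 32 of the 147 regions (21.8%) and in 5.50% of those on the arms. Scores whose decimals agree within 1e-06 but which differ by a whole number, such as 2.17714 and 3.17714 on U, occurred in 29 of the 147 (19.7%) and in 2.89% on the arms. The sources used here do not give the read numbers behind these scores or say how reads with several alignments were counted.

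**Figure D5:**
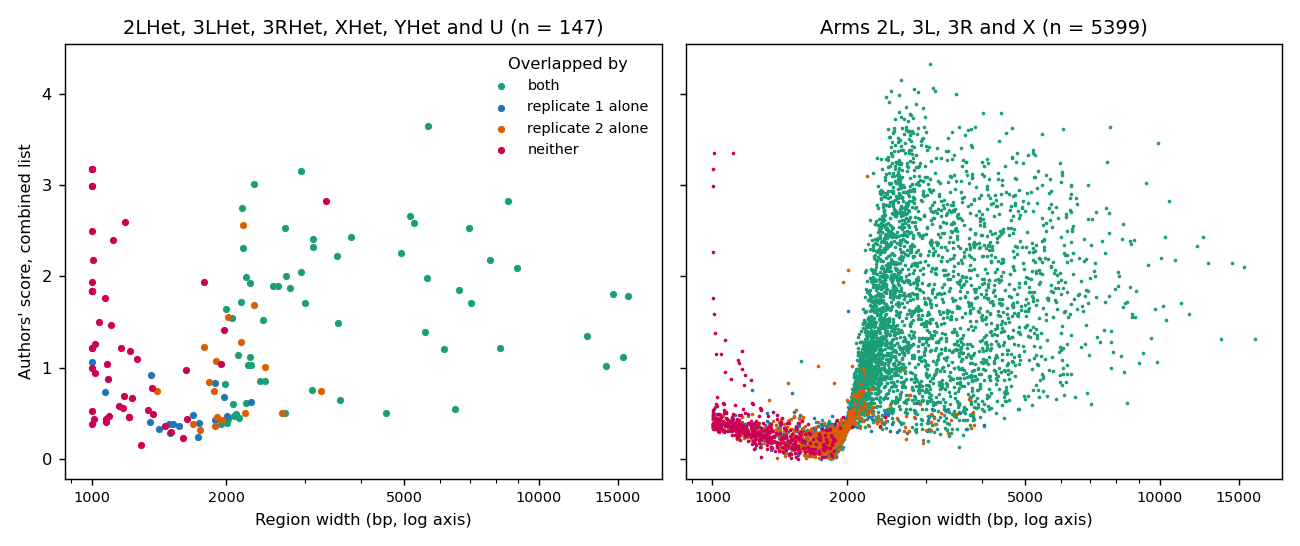
Each point is a region of the combined list, with its width on a logarithmic axis and its score, on the scaffolds and U (left, n = 147) and on the 4 arms (right, n = 5399). Colours show which replicate lists overlap it. On the left the narrowest regions, overlapped by neither replicate, reach scores of 3.18, above all replicated regions but the one on 3LHet that scored 3.65. Of the regions at most 1100 bp wide, 21 of 28 on the left and 11 of 143 on the right lie above the middle of the list by score.

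Pooled over the 6 sequences, width and score went together less closely than on the arms, but the sequences differed. Across the 147 combined regions Spearman's rho was 0.25, compared with 0.78 across the 5399 on the arms. In the replicate lists it was 0.50 in replicate 1 (n = 92) and 0.51 in replicate 2 (n = 86), compared with 0.78 and 0.77 on the arms. U gave the lowest values of the sequences with at least 6 regions, 0.091, 0.36 and 0.31 in the combined list, replicate 1 and replicate 2. 3LHet gave 0.65 in replicate 1 and 0.58 in replicate 2. XHet, with 6 regions in each replicate, gave 1.00 and 0.94, and 3RHet 0.84 (n = 11) and 0.78 (n = 9), which are not below the arms in these lists. In the combined list all lay below the arms, with 0.54 on 3RHet (n = 19), 0.45 on XHet (n = 8), 0.43 on 3LHet (n = 39) and 0.31 on 2LHet (n = 8). These values are across regions of the same libraries and are given without a test.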

How the data were processed

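HP1c ChIP-seq region lists of 2 ChIP replicates and of the replicate set were analysed. The authors aligned reads with Bowtie 0.12.7, per the submitters' processing notes, to FlyBase release 5, per the file headers. The sources used here do not give the caller of the regions, its threshold, how reads with several alignments were treated or how the replicates were joined. The score per region was deposited by the authors, its scale is not stated, and it was used to rank and describe regions within a list. In repeat-rich heterochromatin the treatment of such reads can change which regions are listed.

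Sequence lengths came from the headers. Overlap required at least 1 bp. Values per sequence were the mean of the replicate lists, and 6 sequences were compared with 4 arms by a two-sided exact permutation test over all splits of the sequences, with Benjamini-Hochberg adjustment over 5 measures. Intervals are exact Clopper-Pearson 95% intervals over regions and cover counting error only. The counting steps were tested on simulated data. Named were, per sequence, the highest-scoring and widest combined region overlapping both replicates, the 10 highest-scoring, every YHet region, the longest runs and the longest free stretches. The 11 depletion rows of the combined list, none on these sequences, were left out. Alternatives were the upper 50% by score, merging of regions less than 500 bp apart, a reciprocal overlap of 50%, other distances for neighbours, the combined list, each replicate alone, and the comparison without U or YHet. The members, measures and limits were chosen with earlier results of these data known. Read depth is unknown, so no limit based on reads is given. Python 3.11.15, pandas 2.3.3 and SciPy 1.17.1 were used.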

Additional observations from a re-analysis of the deposited data

How the results depend on the processing

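Of 36 alternative values of the 5 tested measures, 32 stayed on the same side of the threshold with the same sign. Regions per Mb missed the threshold without YHet (-35.0) and without U (-34.3). The exact permutation test over 126 splits gave p = 0.0159 in each case (adjusted p = 0.0794), which is not the smallest p these splits allow. Median width was reversed in the combined list (-296 bp), which holds more narrow regions, and the share with a neighbour less than 5000 bp away passed the threshold in the upper 50% by score (-41.8 points), where the cause was not tested. Leaving out a replicate gave -37.2 to -34.4 regions per Mb, 415 to 541 bp, 6.45 to 8.31 percentile points and -36.6 to -29.4 points. Support by the other replicate has no value with 1 replicate. Coverage moved by more than the replicate SD in 10 of 30 alternatives, on every sequence in the combined list (up to 8.11% on XHet and 6.02% on 2LHet). No paired analysis was possible because no list of the input libraries, which carry the same replicate numbers as the ChIP libraries, was analysed here.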

Other observations

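The combined list left out a few replicate regions on these sequences. Of the 92 regions of replicate 1, 6 overlapped no combined region, 5 on U and 1 on 3LHet, and of the 86 of replicate 2, 3 did not, 1 each on U, 2LHet and 3RHet. None of the 9 overlapped a region of the other replicate. Replicate 1 thus found 93.5% of its regions there in the combined list, compared with 98.3% on the arms, and replicate 2 found 96.5%, compared with 98.9%.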
